A study of Mus musculus with 16 samples.

Results

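The ileum was compared with the duodenum in the 4 control mice of the series, across all measured genes. The comparison uses 8 of the 16 RNA-sequencing libraries: an ileal and a duodenal library from each of the animals NF17, NF29, NF32 and NF152, so that every difference was taken within an animal. Members were chosen by the labelled tissue, genotype and animal alone. All 4 animals were adult males on a C57BL/6N background, kept on the standard diet. They carried floxed Neurog3 alleles (Neurog3f/f) and, unlike the mutants of the series, no Villin-CreERT2 transgene, so the intestinal epithelium had no recombinase to delete the gene. The labels place the collection 18 weeks after tamoxifen for both genotypes jointly, and do not say whether controls were given the drug. Which stretch of each gut segment was cut, and whether muscle and mesentery stayed attached, is not stated either.

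The small intestine is one tube whose parts do different work. Bile and pancreatic juice enter at the duodenum, where most iron, calcium, sugar and fat uptake begins and where acid from the stomach is neutralised. The ileum, at the far end, recovers bile acids and vitamin B12 before the contents pass to the colon, and lies next to a denser microbial community. Transcription factors set these identities along the tube: GATA4 and PDX1 act proximally, and Hox genes are switched on in blocks from front to back of the body axis.

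The 4 ileal libraries held 9513823 to 25617964 counts and the 4 duodenal ones 11365476 to 18134135. Neurog3 had 8 to 27 counts in the ileal and 12 to 37 in the duodenal libraries. Genes that define each labelled tissue were where they belong in all 8 libraries: Fabp6 and Slc10a2, ileal genes of bile acid uptake, were high in every ileal library, and Pdx1 and Gata4 in every duodenal one (values below). Counts differed least between NF17 and NF32 in both tissues: chi-square per degree of freedom was 11.5 in ileum and 26.3 in duodenum, against 28.2 to 39.4 and 41.9 to 76.5 for the other pairs, a statistic that also grows with depth. Duodenal libraries also contained RNA typical of the pancreas, which lies against the duodenum. A list of acinar cell genes (digestive enzymes and their helpers) took 17.1%, 9.21%, 10.8% and 7.86% of duodenal counts in NF17, NF29, NF32 and NF152, and 0.943%, 0.251%, 0.991% and 0.186% of ileal counts in the same order. The 95% Wilson intervals of these shares were at most 0.0390 percentage points wide and speak for the counting alone, because PCR can copy 1 molecule many times. Of 41 acinar genes tested, 40 were called higher in duodenum, with a median log2 difference of -4.88. Of the 41, 14 passed the count filter only through their duodenal libraries, which favours a difference. How far that RNA contributes to genes that pancreas and duodenum both express was not tested, and the acinar share is given beside such genes.

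Levels are given as counts per 1000000 (CPM), scaled between libraries, and where libraries are listed their order is always NF17, NF29, NF32 and NF152. Means are ± SD over the 4 libraries of a tissue. Differences are log2 fold changes of ileum minus duodenum ± SE, so that positive values mean higher in ileum. A gene was called when edgeR's quasi-likelihood test with the animal as a block gave a Benjamini-Hochberg adjusted p under 0.05 over all 14976 genes tested. Levels of different genes are compared only after division by the length of their exons (CPM per kilobase). Because whole tissue was sequenced, fewer cells of a type and less RNA per cell cannot be told apart in anything that follows.

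Of the 14976 genes, 5897 were called (39.4%): 2770 were higher in ileum (18.5%) and 3127 in duodenum (20.9%). Called with a change of at least 2-fold were 1824 genes (12.2%), of which 864 were higher in ileum (5.77%) and 960 in duodenum (6.41%). A change of at least 8-fold was found for 119 genes in ileum and 159 in duodenum. The ileal and duodenal libraries did not overlap for 5198 genes (34.7%), and 97.4% of the called genes had the same sign in all 4 animals. The median log2 difference over all genes was 0.01. Leaving out NF17 lowered the number of calls to 3669, and leaving out NF32 or NF152 to 4343 or 4917.

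**Figure D1:**
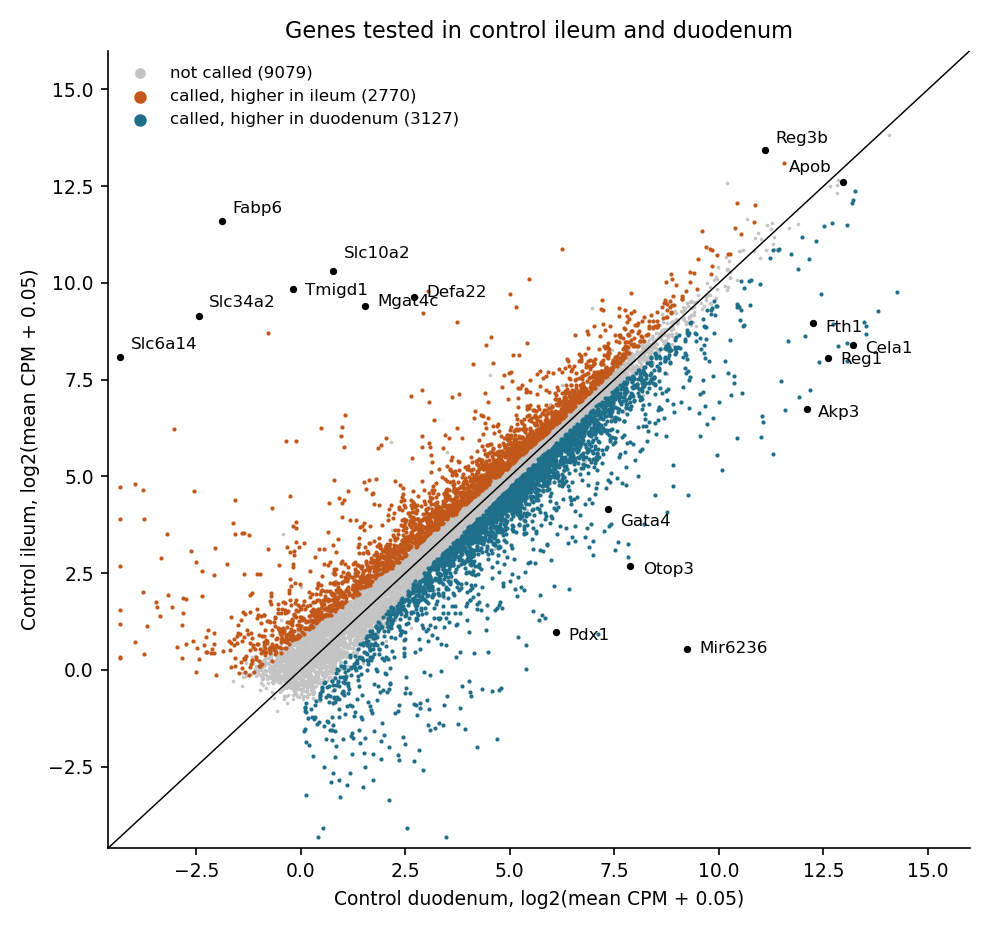
Each point is a gene tested in the 8 control libraries, with its mean CPM in duodenum (horizontal) and ileum (vertical) on a log2 scale after adding 0.05. Orange marks the 2770 genes called higher in ileum and blue the 3127 called higher in duodenum, with the line at equal levels. The ileal genes Fabp6, Slc10a2, Slc34a2 and Slc6a14 stand far above the line, and Mir6236, Otop3, Pdx1 and Akp3 far below it.

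The genes with the largest differences toward the ileum were near silent in the duodenum. Fabp6, which carries bile acids through the ileal enterocyte, measured 3289, 4236, 2008 and 2837 CPM in ileum and 0.0833, 0.381, 0.0948 and 0.332 in duodenum, a log2 difference of 13.64 ± 0.31, adjusted p = 3.70e-08. Slc6a14, a sodium- and chloride-driven amino acid importer, stood at 134, 357, 292 and 306 CPM in ileum, against 0 counts in all 4 duodenal libraries, and was at least 4202-fold higher in ileum when measured against a floor of 3 counts over the 4 duodenal libraries. NF17 had the lowest ileal value of Slc6a14 and NF29 the highest. Slc34a2, a sodium-driven phosphate importer, measured 639.5, 695, 466 and 484 CPM in ileum and at most 0.284 in duodenum (12.11 ± 0.39). No ileal library of these genes came near a duodenal one.

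Other genes in the top rank for the ileum were Osr2, a zinc finger transcription factor, with 26.3 ± 1.70 CPM and 0 duodenal counts (at least 445-fold), and Tmigd1, a membrane protein of the immunoglobulin superfamily (922 ± 325 against 0.825 ± 0.399, 10.19 ± 0.41). P2ry4, a receptor for extracellular nucleotides, had 1988 counts in ileum and 1 in duodenum. Slc5a8, a sodium-driven carrier of short-chain fatty acids, differed by 9.80 ± 0.71. Its duodenal values were 0.167, 0.0954, 1.80 and 0.0553 CPM, so that NF32 was the high one. Saa1, an acute-phase protein of the epithelium, ran from 20.9 to 178 CPM among ileal libraries while having only 4 counts in the duodenum.

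In the other direction, Otop3, a proton channel, measured 212, 262, 171 and 297 CPM in duodenum and 12.8, 3.75, 4.47 and 4.66 in ileum (-5.28 ± 0.42, adjusted p = 0.000511). Ugt2b38, which couples glucuronic acid to drugs and steroids, and Cyp4a10, which oxidises fatty acids at their far end, were called at -5.13 and -5.32. Both were uneven among the duodenal libraries: Ugt2b38 measured 5.83, 46.2, 1.71 and 56.9 CPM and Cyp4a10 6.67, 24.3, 1.99 and 21.4, low in NF17 and NF32 and high in NF29 and NF152. Gkn3, a gastrokine, followed the same order with 8.16, 28.9, 3.89 and 19.3 CPM (-5.13 ± 0.58).

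For some of the largest duodenal differences, ileal levels were highest in the libraries with most acinar RNA. Cela1, an elastase, measured 551, 158, 554 and 87.4 CPM in ileum and 14853, 8161, 8458 and 6322 in duodenum. Muc1, a membrane mucin, had 0.514, 0.183, 0.559 and 0.0435 CPM in ileum, from 23 counts in all. Its duodenal values were 18.0, 11.8, 8.44 and 3.76 CPM, with NF29 above NF32, unlike the duodenal acinar share. Slc38a5, a glutamine carrier, had 0.770, 0.274, 0.746 and 0.0435 CPM in ileum. In these 3 genes NF17 and NF32 were the high ileal libraries, as they were for the acinar share. Mir6236 was also in this rank, at 1.32, 1.46, 1.957 and 0.870 CPM in ileum and 715, 589, 749 and 359 in duodenum. These libraries were made from fragmented total RNA, so counts at Mir6236 are reads over that locus and not the mature miRNA. The part of acinar RNA in these differences was not tested.

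Promoters of the genes with the largest change each way are shown because they let the letters be read beside the expression. Of the 6 genes at the top of both ranks, 4 had an entry in the RefSeq promoter table (build GRCm38.p6), and the 250 bases before the annotated start are printed in the direction of the gene, 5′ to 3′. Capitals mark matches, on either strand, to the motifs searched: AGATAA and TGATAA (the site of GATA factors), TTTATT and TTTATG (the site of CDX factors), AGGTCA (the single site of many nuclear receptors), and AGGTNANTNACCT, an inverted repeat of that site spaced by 1 base, the form that the bile acid receptor FXR is known to bind. In this repeat N stands for any base, so its sites need not read AGGTCA. The inverted repeat was added after the Fabp6 sequence had been seen.
Fabp6, chr11:43601563-43601812, minus strand: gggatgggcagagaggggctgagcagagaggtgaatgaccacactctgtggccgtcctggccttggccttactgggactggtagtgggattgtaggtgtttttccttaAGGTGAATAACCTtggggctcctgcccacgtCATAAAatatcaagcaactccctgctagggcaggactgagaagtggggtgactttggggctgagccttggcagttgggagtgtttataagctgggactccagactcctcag
Slc6a14, chrX:21714650-21714899, plus strand: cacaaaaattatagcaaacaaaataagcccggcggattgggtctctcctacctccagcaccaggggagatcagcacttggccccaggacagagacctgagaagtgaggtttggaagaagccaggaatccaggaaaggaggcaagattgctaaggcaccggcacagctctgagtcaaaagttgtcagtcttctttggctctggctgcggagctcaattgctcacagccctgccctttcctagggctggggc
Slc34a2, chr5:53049103-53049352, plus strand: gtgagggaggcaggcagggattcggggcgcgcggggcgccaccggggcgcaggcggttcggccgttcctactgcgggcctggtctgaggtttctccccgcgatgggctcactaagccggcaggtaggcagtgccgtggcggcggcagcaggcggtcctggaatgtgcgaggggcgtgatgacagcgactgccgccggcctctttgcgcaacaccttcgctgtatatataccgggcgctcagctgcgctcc
Otop3, chr11:115334481-115334730, plus strand: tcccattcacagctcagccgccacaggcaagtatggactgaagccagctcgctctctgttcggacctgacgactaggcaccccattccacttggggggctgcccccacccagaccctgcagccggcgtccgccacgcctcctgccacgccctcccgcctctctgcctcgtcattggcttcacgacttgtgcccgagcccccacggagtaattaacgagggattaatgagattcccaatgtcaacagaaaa

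The Fabp6 promoter held the inverted repeat at 142 to 130 bases before the start, reading AGGTGAATAACCT, and a CDX motif on the opposite strand at 111 to 106 bases before it. The inverted repeat occurred in 6 of all 32817 promoters of the table (0.0183%) and in 2 of the 13913 promoters of genes tested here. Because this pattern was chosen with the Fabp6 sequence in view, these shares are a description and no test. The windows of Slc6a14, Slc34a2 and Otop3 held no match to any of the motifs. Over the genes called at least 8-fold higher in duodenum, 34 of 131 promoters held AGATAA (26%) and 33 held AGGTCA (25.2%), against 13.5% and 9.62% of 104 promoters of genes called at least 8-fold higher in ileum. Over the promoters of all genes tested the shares were 6.38% and 11.2%. With the genes of the acinar list left out, the duodenal shares were 24.5% and 25.5% of 98 promoters. That list does not hold Cela1 or Clps, which were also called at least 8-fold higher in duodenum. The other GATA motif, TGATAA, was in 15.3% of the duodenal promoters, or 10.2% without the acinar list, and in 10.6% of the ileal ones. The motifs of CDX factors went opposite ways: TTTATG was found in 18.3% of the ileal and 10.7% of the duodenal promoters, and TTTATT in 17.3% and 25.2%. In the promoters of all genes tested, these 3 motifs were found in 4.29%, 6.22% and 11.3%. These counts describe letters in a short window. They do not show that a factor binds there.

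Of 12 bile acid genes, 9 had enough counts to be tested, and 7 were called higher in ileum and 2 in duodenum. Of these, 5 (Slc10a2, Fabp6, Baat, Fgf15 and Nr0b2) passed the count filter only through the tissue where they are high, which favours a difference, so the share says nothing of the whole group. Slc10a2, the sodium-driven importer of bile acids at the luminal membrane, measured 1208, 1139.8, 1099 and 1661 CPM in ileum and 1.67, 0.858, 1.71 and 2.43 in duodenum (9.58 ± 0.22, adjusted p = 3.70e-08). Per kilobase of exon, Fabp6 reached 6456 CPM in ileum and Slc10a2 308. The genes of the exit transporter at the blood side, Slc51a and Slc51b, were present in both tissues and higher in ileum, by 2.10 ± 0.15 and 2.05 ± 0.21. So the luminal importer and the carrier were close to absent from the duodenal libraries, while the exporter measured 149 ± 36.4 CPM (Slc51a) and 52.3 ± 16.8 CPM (Slc51b) in duodenum.

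The bile acid receptor FXR is encoded by Nr1h4, which measured 175, 174, 184 and 188 CPM in ileum and 37.7, 47.7, 45.3 and 47.8 in duodenum (2.02 ± 0.10, adjusted p = 2.53e-06). Fgf15, the hormone by which the ileum reports bile acids to the liver, had 0 counts in all duodenal libraries and 1.50, 1.28, 1.03 and 7.61 CPM in ileum (at least 57.1-fold). NF152 was the high library. Nr0b2, a repressor that FXR activates in liver, went the opposite way to Fgf15, with 0.293, 0.183, 0.0932 and 0.435 CPM in ileum and 5.67, 6.01, 3.89 and 6.08 in duodenum (-4.29 ± 0.31, adjusted p = 2.26e-05). Abcc3, an exporter of conjugated bile acids, was also higher in duodenum (-1.14 ± 0.19), and Baat, which conjugates bile acids, higher in ileum (4.02 ± 0.29, with 5.56 ± 2.08 CPM there).

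Regional transcription factors differed in both directions. Of 34 tested, 13 were called higher in ileum and 9 in duodenum; without NF17 the ileal count was 8. Gata4, a driver of proximal identity, measured 172, 165, 186 and 125 CPM in duodenum and 24.3, 10.2, 23.0 and 13.7 in ileum (-3.23 ± 0.19, adjusted p = 2.39e-05). The related Gata6 differed by -0.98 ± 0.14, and Gata5 was not called, with 61.4 ± 9.98 CPM in duodenum and 63.3 ± 5.01 in ileum. Pdx1, which marks duodenum and pancreas, had 64.0, 80.0, 60.9 and 70.3 CPM in duodenum and 2.86, 1.01, 2.61 and 1.22 in ileum (-5.15 ± 0.31, adjusted p = 6.50e-05). Within ileum, Pdx1 and Gata4 were each higher in NF17 and NF32 than in NF29 and NF152. Onecut2, a homeodomain factor, stood at 169.8 ± 17.2 CPM against 13.7 ± 4.04 (-3.65 ± 0.17). Creb3l3, a membrane-bound activator of lipid genes, and Meis2 were also duodenal, by -2.06 ± 0.24 and -1.42 ± 0.14.

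On the ileal side, Foxa1, a forkhead factor that opens chromatin, measured 13.3, 18.4, 17.2 and 11.3 CPM in ileum and 4.75, 4.29, 5.41 and 3.87 in duodenum (1.69 ± 0.15, adjusted p = 6.92e-05). Maf was higher by 0.92 ± 0.15. The intestinal factor Cdx1 was 0.82 ± 0.10 higher in ileum and its relative Cdx2 0.39 ± 0.11 (adjusted p = 0.0205), a call that was lost without NF17, without NF152 and over all 16 libraries. Hnf4a, a regulator of enterocyte genes, was called at 0.37 ± 0.13 (adjusted p = 0.0434) and lost the call without NF17, NF32 or NF152 and without the animal block. Its partner Hnf4g was not called (-0.33 ± 0.14, adjusted p = 0.0943).

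Hox genes were higher in ileum wherever they were called. Of the 39 genes of the list, 17 had enough counts to be tested: 13 were called higher in ileum and 0 in duodenum, with a median of 2.70. Of the 17, 13 passed the count filter only through their ileal libraries, which favours a difference, so this share is no measure of the whole family. Hoxb9 measured 24.7, 24.4, 23.8 and 26.4 CPM in ileum and had 1 count in the duodenum. Hoxc8, Hoxb8 and Hoxc9 had no duodenal count, with 6.43 ± 0.454, 2.22 ± 0.548 and 1.21 ± 0.140 CPM in ileum. Their ileal levels were at least 111-fold, 39.6-fold and 21.1-fold higher.

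Within the Hoxb cluster, Hoxb6 to Hoxb9 differed more than Hoxb2 to Hoxb5. Hoxb2 was not called (-0.18 ± 0.36, adjusted p = 0.721). Hoxb3, Hoxb4 and Hoxb5 were higher in ileum by 1.60 ± 0.26, 0.87 ± 0.29 and 1.61 ± 0.33, and Hoxb6 and Hoxb7 by 5.45 ± 0.29 and 5.80 ± 0.35. Hoxb8 had no duodenal count and Hoxb9 1. The call for Hoxb4 was lost without NF17, NF29 or NF32, without the animal block, with DESeq2 and over all 16 libraries. In the Hoxa cluster, Hoxa7 was higher in ileum (2.98 ± 0.41), and Hoxa3 and Hoxa5 were not called (-0.78 ± 0.36 and -0.58 ± 0.27).

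**Figure D2:**
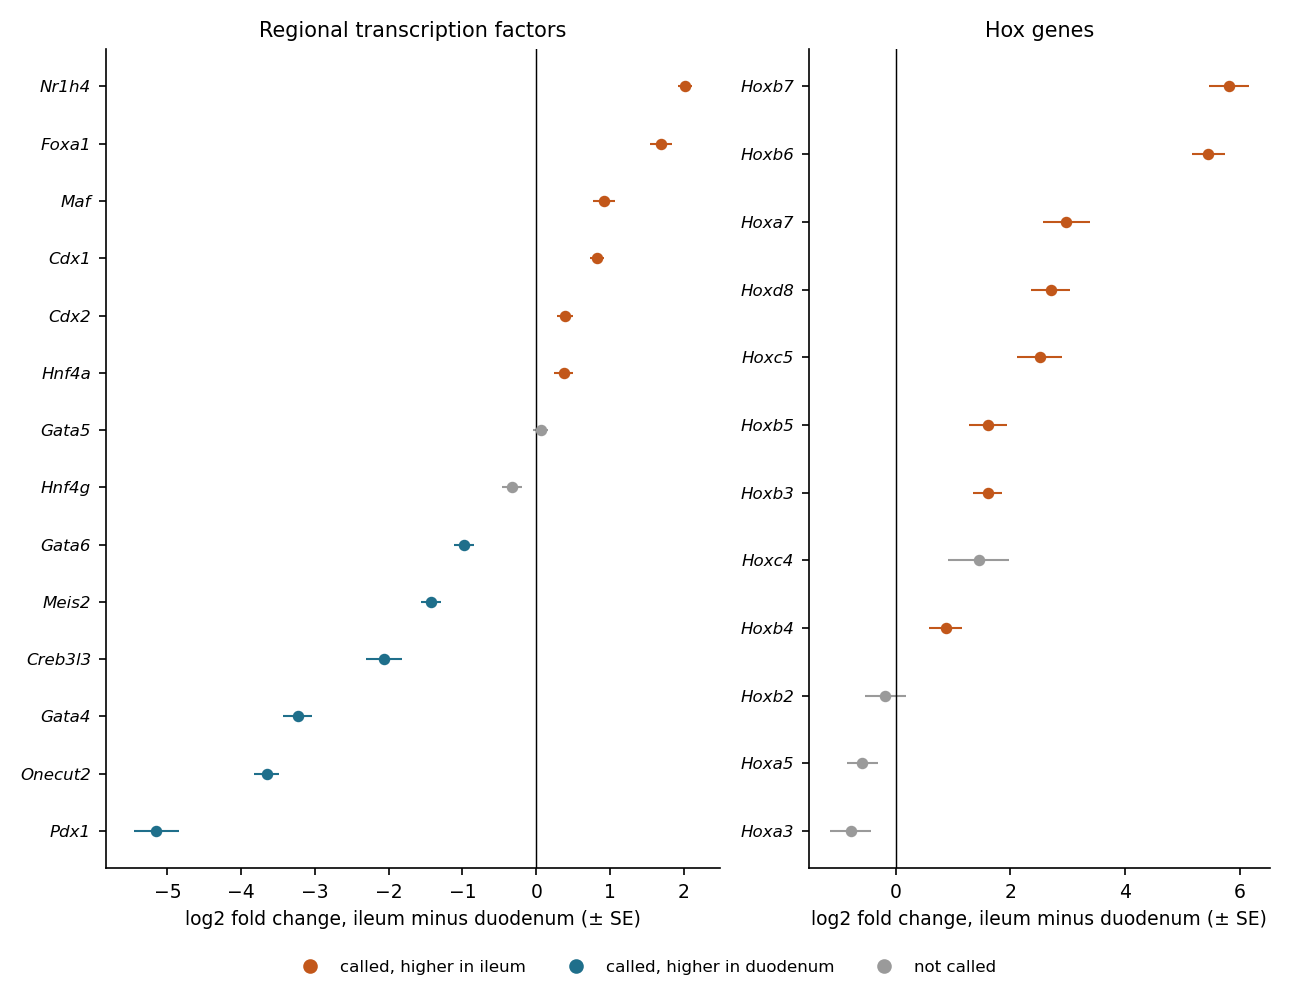
Points are log2 fold changes of ileum minus duodenum with SE for the regional transcription factors named in the text (left) and Hox genes (right), from the paired test on 8 control libraries. Genes with 3 or fewer counts in a tissue (Osr2, Hoxb8, Hoxb9, Hoxc6, Hoxc8 and Hoxc9, all higher in ileum) are not drawn. Pdx1, Onecut2 and Gata4 are farthest to the duodenal side, and Hoxb7 and Hoxb6 farthest to the ileal side.

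The hormones of the enteroendocrine cells, which are scattered single cells that sense the gut contents, were divided between the tissues. Of 16 tested genes, 4 were called higher in ileum and 8 in duodenum. Cck (cholecystokinin, which contracts the gallbladder) measured 45.6, 37.5, 31.2 and 47.3 CPM in duodenum and 5.14, 4.02, 2.33 and 4.96 in ileum (-3.30 ± 0.13, adjusted p = 1.08e-06). Ghrl (ghrelin) and Gip (an incretin) were likewise duodenal, by -3.10 ± 0.16 and -2.69 ± 0.26. Sst (somatostatin) differed by -1.45 ± 0.12, and Tph1, the enzyme that starts serotonin synthesis, by -1.29 ± 0.17.

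Ileal hormones were Gcg, which encodes GLP-1 and GLP-2, Pyy (peptide YY) and Nts (neurotensin). Gcg measured 81.7, 58.1, 57.8 and 71.8 CPM in ileum and 12.1, 11.6, 10.7 and 9.34 in duodenum (2.62 ± 0.13, adjusted p = 2.65e-06). Nts had 63.0, 46.7, 35.2 and 95.5 CPM in ileum and at most 1.43 in duodenum (6.49 ± 0.49, adjusted p = 0.000303). Pyy was 19.9 ± 3.52 CPM in ileum, while its duodenal values were 0.583, 2.96, 0.0948 and 2.54 (3.72 ± 0.60, adjusted p = 0.00658). Tac1, the substance P precursor that neurons also express, was higher in ileum by 1.03 ± 0.23.

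Genes shared by most enteroendocrine cells were also measured. Chga and Chgb, granule proteins, were higher in duodenum by -0.95 ± 0.11 and -1.14 ± 0.10. Sct (secretin) was not called: its libraries measured 28.1, 19.7, 20.1 and 22.0 CPM in ileum and 14.5, 26.7, 10.9997 and 24.9 in duodenum (0.28 ± 0.26, adjusted p = 0.425), and NF17 and NF32 went one way, NF29 and NF152 the other. Neurog3 itself was 0.981 ± 0.182 CPM in ileum and 1.89 ± 0.551 in duodenum and was not called (-0.93 ± 0.33, adjusted p = 0.0544). Of 11 tested factors of this lineage, Neurog3 included, 27.3% were called, against 39.4% of all genes. Etv1 was called higher in ileum (1.15 ± 0.29), and Nkx2-2 and Lmx1a in duodenum (-1.43 ± 0.41 and -0.89 ± 0.28), both at low counts. The calls for Nkx2-2 and Lmx1a were lost without NF17 and without NF29.

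Among 14 receptors for hormones and nutrients, 3 were called higher in ileum and 4 in duodenum (50%, against 39.4% of all genes). Trpa1, an irritant channel of serotonin-producing cells, measured 9.83, 10.01, 7.396 and 12.8 CPM in duodenum and 2.16, 1.56, 2.24 and 3.96 in ileum (-2.03 ± 0.20). Glp1r, the GLP-1 receptor, was duodenal (-1.77 ± 0.24) and Ffar4, a receptor for long-chain fatty acids, ileal (1.83 ± 0.26). Cckar, the cholecystokinin receptor that acinar cells also express, differed by -4.82 ± 0.22, with ileal values of 2.82, 0.823, 1.86 and 0.522 CPM that were highest in NF17 and NF32, the libraries with most acinar RNA.

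**Figure D3:**
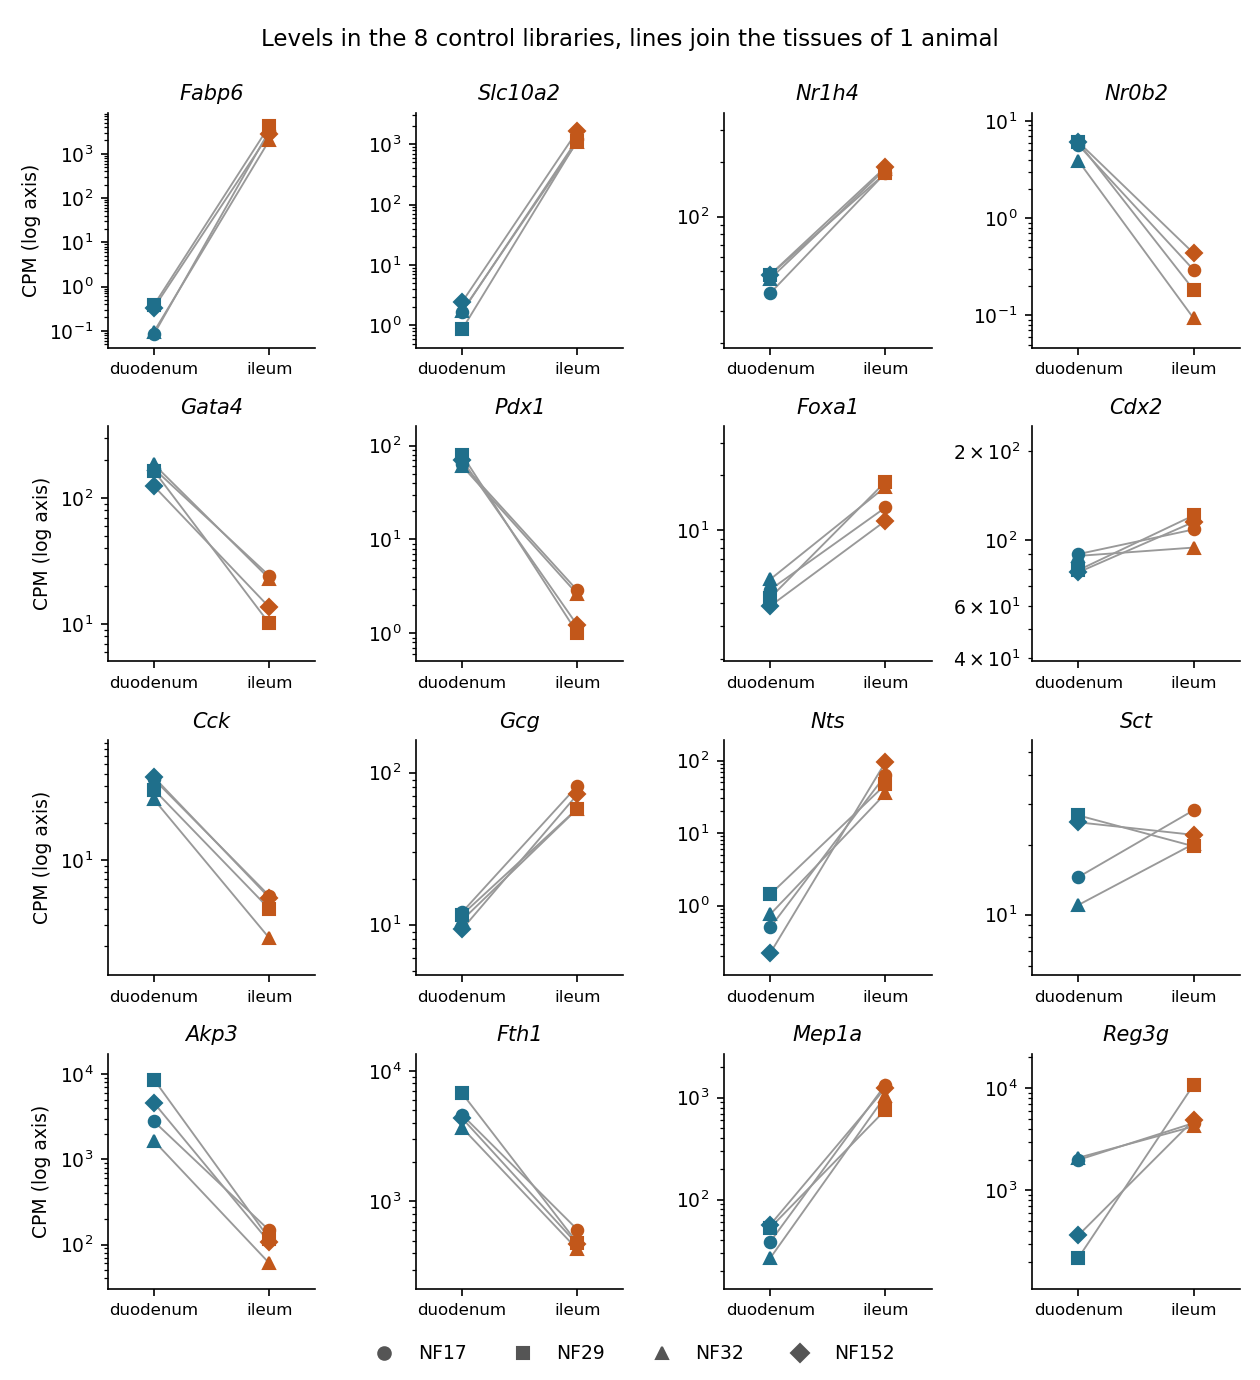
CPM on log axes of 16 genes in the duodenal (blue) and ileal (orange) libraries of the 4 control animals, with a line joining the tissues of an animal. All lines of a panel run the same way except for Sct, and for Reg3g the duodenal libraries of NF17 and NF32 lie above those of NF29 and NF152.

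Sugar digestion and use was a duodenal group. Of 18 genes tested, 0 were called higher in ileum and 14 in duodenum, with a median of -1.46. The enzymes of fructose breakdown Khk and Tkfc were higher in duodenum by -1.93 ± 0.13 and -1.52 ± 0.13, Slc2a7, a hexose carrier, by -2.13 ± 0.18, and Fbp1, an enzyme of glucose formation, by -2.48 ± 0.22. Khk measured 336, 356, 289 and 312 CPM in duodenum and 101.03, 69.2, 84.1 and 86.2 in ileum, with no overlap. Sis (sucrase-isomaltase), the abundant brush border disaccharidase, was not called, at 7214 ± 800.2 CPM in duodenum and 5087 ± 989 in ileum (-0.52 ± 0.21, adjusted p = 0.0764).

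Fat absorption was duodenal too, with 21 of 31 tested genes called higher there, 1 in ileum and a median of -0.63. Slc27a2, which activates long-chain fatty acids, measured 177, 223, 133 and 246 CPM in duodenum and 43.9, 39.7, 45.9 and 51.7 in ileum (-2.07 ± 0.15, adjusted p = 2.74e-05). Cideb, needed to load lipid onto chylomicrons, differed by -1.08 ± 0.12. Apob, the backbone protein of the chylomicron, was not called (-0.35 ± 0.22, adjusted p = 0.239), nor was Fabp2, the fatty acid carrier of the enterocyte (0.59 ± 0.29, adjusted p = 0.154). Clps (colipase) and Pnliprp2 (a lipase), called at -4.07 ± 0.20 and -2.21 ± 0.18, are made by the pancreas as well. Ileal Clps measured 278, 114, 222 and 90.0 CPM, highest in NF17 and NF32.

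The fatty acid-binding protein family showed all patterns. Fabp6 was ileal, Fabp2 was not called, and Fabp1, the liver-type carrier, which was named for this family comparison after its values had been seen, was higher in duodenum (-2.75 ± 0.34, adjusted p = 0.00137). Fabp1 measured 1123, 1886, 929.6 and 1299 CPM in duodenum and 233, 110.3, 193 and 235 in ileum.

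Fat oxidation genes were mostly duodenal: 13 of 21 were called higher there and 2 in ileum. Ehhadh, a peroxisomal enzyme, and Acaa2, a mitochondrial thiolase, were higher in duodenum by -1.74 ± 0.17 and -1.88 ± 0.21. Vnn1, a pantetheinase of the brush border, was the opposite (1.85 ± 0.15), at 130.1 ± 21.1 CPM in ileum and 36.5 ± 8.81 in duodenum. Cpt1a, the gate for fatty acid entry into mitochondria, was not called (-0.24 ± 0.12).

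Cholesterol synthesis was an ileal group. Of 25 genes tested, 17 were called higher in ileum and 3 in duodenum, with a median of 1.06. The duodenal count was 0 without NF17, NF32 or NF152 and without the animal block, and 1 with DESeq2's Wald test and over all 16 libraries. Sqle, which makes the first oxygenated intermediate of the sterol branch, measured 151.5, 275, 122 and 153.2 CPM in ileum and 30.0, 41.9, 33.8 and 26.4 in duodenum (2.37 ± 0.14, adjusted p = 8.75e-06). Hmgcs1, Msmo1 and Fdft1, earlier and later enzymes of the same route, were higher by 1.85 ± 0.12, 1.78 ± 0.12 and 1.70 ± 0.13. In all 4 of these genes NF29 had the highest ileal value, and the ileal libraries lay above every duodenal one. Pmvk, a kinase of the route, was not called (0.39 ± 0.19).

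Fatty acid synthesis was split, with 6 of 15 genes called higher in ileum and 6 in duodenum. The desaturases Scd1 and Scd2 were ileal, by 3.77 ± 0.18 and 2.84 ± 0.13: Scd1 measured 149, 281, 288 and 244 CPM in ileum and 15.2, 21.5, 13.2 and 19.3 in duodenum. Mlxipl, a sugar-sensing transcription factor, and Elovl6, an elongase, were duodenal, by -1.48 ± 0.09 and -1.13 ± 0.10. Fasn, the synthase itself, was not called (0.37 ± 0.16, adjusted p = 0.0952).

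Brush border peptidases leaned to the ileum: 10 of 16 were called higher there and 3 in duodenum, with a median of 1.18. Mep1a (meprin alpha) measured 1347, 761, 1043 and 1248 CPM in ileum and 38.5, 52.8, 26.6 and 56.5 in duodenum (4.68 ± 0.27, adjusted p = 2.16e-05). Naaladl1, a dipeptidase, and Xpnpep2, an aminopeptidase that cleaves before proline, were higher by 4.70 ± 0.24 and 4.05 ± 0.15, and Enpep, which removes acidic residues, by 1.77 ± 0.20. Ace, the angiotensin-converting enzyme, was not called (-0.55 ± 0.21, adjusted p = 0.0669).

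Amino acid carriers had 6 ileal and 3 duodenal calls among 18 (50%, against 39.4% of all genes), and a median of 0.06. Slc1a1, an importer of acidic amino acids, measured 184, 212, 204 and 213 CPM in ileum and 30.6, 30.7, 36.0 and 28.5 in duodenum (2.70 ± 0.11, adjusted p = 8.88e-07). The basolateral exchanger subunits Slc7a8 and Slc3a2 were duodenal, by -1.53 ± 0.18 and -0.80 ± 0.10. The main neutral carrier Slc6a19 and the peptide carrier Slc15a1 were not called, with differences of 0.28 ± 0.19 and 0.53 ± 0.21.

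Vitamin uptake genes had 10 duodenal and 5 ileal calls among 21. Slc19a1, a folate carrier, and Slc19a3, a thiamine carrier, were duodenal, by -2.02 ± 0.10 and -4.31 ± 0.30, as was Scarb1, a receptor for lipoproteins and carotenoids (-3.03 ± 0.19). Slc52a3, a riboflavin carrier, was ileal, at 179, 176, 121 and 154 CPM against 29.5, 28.6, 31.96 and 22.1 (2.49 ± 0.15, adjusted p = 8.66e-06). Cubn, the receptor for vitamin B12 bound to intrinsic factor, lay outside the rule for naming genes and was picked after its values were seen. It measured 1007, 410.4, 964 and 954 CPM in ileum and 18.5, 50.2, 8.63 and 51.9 in duodenum (4.89 ± 0.77, adjusted p = 0.00780).

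Of 14 genes of iron handling, 6 were called higher in duodenum and 3 in ileum. Fth1, the heavy chain of the iron store ferritin, measured 4605, 6736, 3670.2 and 4342 CPM in duodenum and 609, 481, 429.6 and 470.1 in ileum (-3.26 ± 0.20, adjusted p = 9.21e-06), and Ftl1, the light chain, differed by -1.41 ± 0.11. Epas1, the hypoxia factor that drives iron uptake genes, was 184 ± 11.4 CPM in duodenum and 59.2 ± 1.25 in ileum (-1.63 ± 0.09, adjusted p = 5.12e-06). Slc39a14, an importer of zinc and iron, was duodenal (-1.42 ± 0.11). Heph, the ferroxidase that works with the iron exporter, was not called (-0.16 ± 0.12).

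Calcium and phosphate genes were called in both directions, 7 in ileum and 4 in duodenum of 13. The vitamin D receptor Vdr was duodenal (-1.37 ± 0.11, adjusted p = 2.81e-05). S100g, the calcium-binding shuttle calbindin-D9k that vitamin D induces, measured 104, 471, 61.9 and 269 CPM in duodenum and 6.13, 10.4, 2.05 and 11.6 in ileum (-4.73 ± 0.24, adjusted p = 2.26e-05). NF29 and NF152 were the high libraries of S100g in both tissues. The magnesium channel Trpm6 was ileal, at 73.5, 41.8, 55.5 and 70.01 CPM against 0.916, 0.191, 1.52 and 0.884 (6.13 ± 0.25, adjusted p = 1.85e-06), in the same direction as the phosphate importer Slc34a2.

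Intestinal alkaline phosphatases, which strip phosphate from lipids and bacterial endotoxin, were duodenal. Akp3 measured 2793, 8674, 1648 and 4622 CPM in duodenum and 147, 117, 60.5 and 107 in ileum (-5.16 ± 0.36, adjusted p = 4.38e-05), and Alpi 3534, 6173, 2947 and 4438 and 566, 235, 420.0 and 369 (-3.43 ± 0.37, adjusted p = 0.000538). Per kilobase, duodenal means were 2113 CPM for Akp3 and 1828 for Alpi, and ileal means 51.4 and 170.0. By library, Akp3 was above Alpi in the duodenum of NF29 and NF152, below it in that of NF17 and NF32, and below it in all 4 ileal libraries, a difference between genes that was not tested. Alppl2 was called at -0.98 ± 0.34 (adjusted p = 0.0478), a call lost without the animal block, with DESeq2 size factors and without NF17, NF29 or NF152.

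Purine and nucleoside genes had 7 duodenal and 2 ileal calls among 14. Xdh, which makes uric acid, and Cda, which deaminates cytidine, were duodenal, by -1.70 ± 0.16 and -2.51 ± 0.31. Ada, the adenosine deaminase, measured 413, 2229, 855 and 603 CPM in duodenum, with NF29 far above the rest, and 100.2, 141, 135 and 111 in ileum (-2.77 ± 0.33, adjusted p = 0.00111). In the pathway of citrulline and urea, 6 of 15 genes were called higher in duodenum and 3 in ileum (1 without NF17 or without NF32). Arg2, an arginase, was duodenal (-2.56 ± 0.27). Ddah1, which breaks down methylated arginines, was ileal, at 67.6, 104, 59.0 and 72.6 CPM against 1.42, 1.91, 0.948 and 1.11 (5.83 ± 0.13, adjusted p = 3.70e-08).

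Genes of xenobiotic metabolism, which oxidise, conjugate or export drugs and diet compounds, were duodenal in 29 of 40 cases and ileal in 2, with a median of -1.37. Gstm3, a glutathione transferase, measured 422, 585, 243 and 174 CPM in duodenum and 36.2, 18.7, 22.0 and 14.0 in ileum (-3.88 ± 0.28, adjusted p = 0.000155). The carboxylesterases Ces1e and Ces1f were higher in duodenum by -2.16 ± 0.14 and -1.35 ± 0.11. Abcg2, an exporter of drugs and urate, was the exception among the members of smallest p, at 476 ± 54.0 CPM in ileum and 169 ± 24.2 in duodenum (1.50 ± 0.11, adjusted p = 2.19e-05). Ces2e and Cyp4f14, the members of highest level that were not called, differed by -0.31 ± 0.16 and -0.31 ± 0.17.

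**Figure D4:**
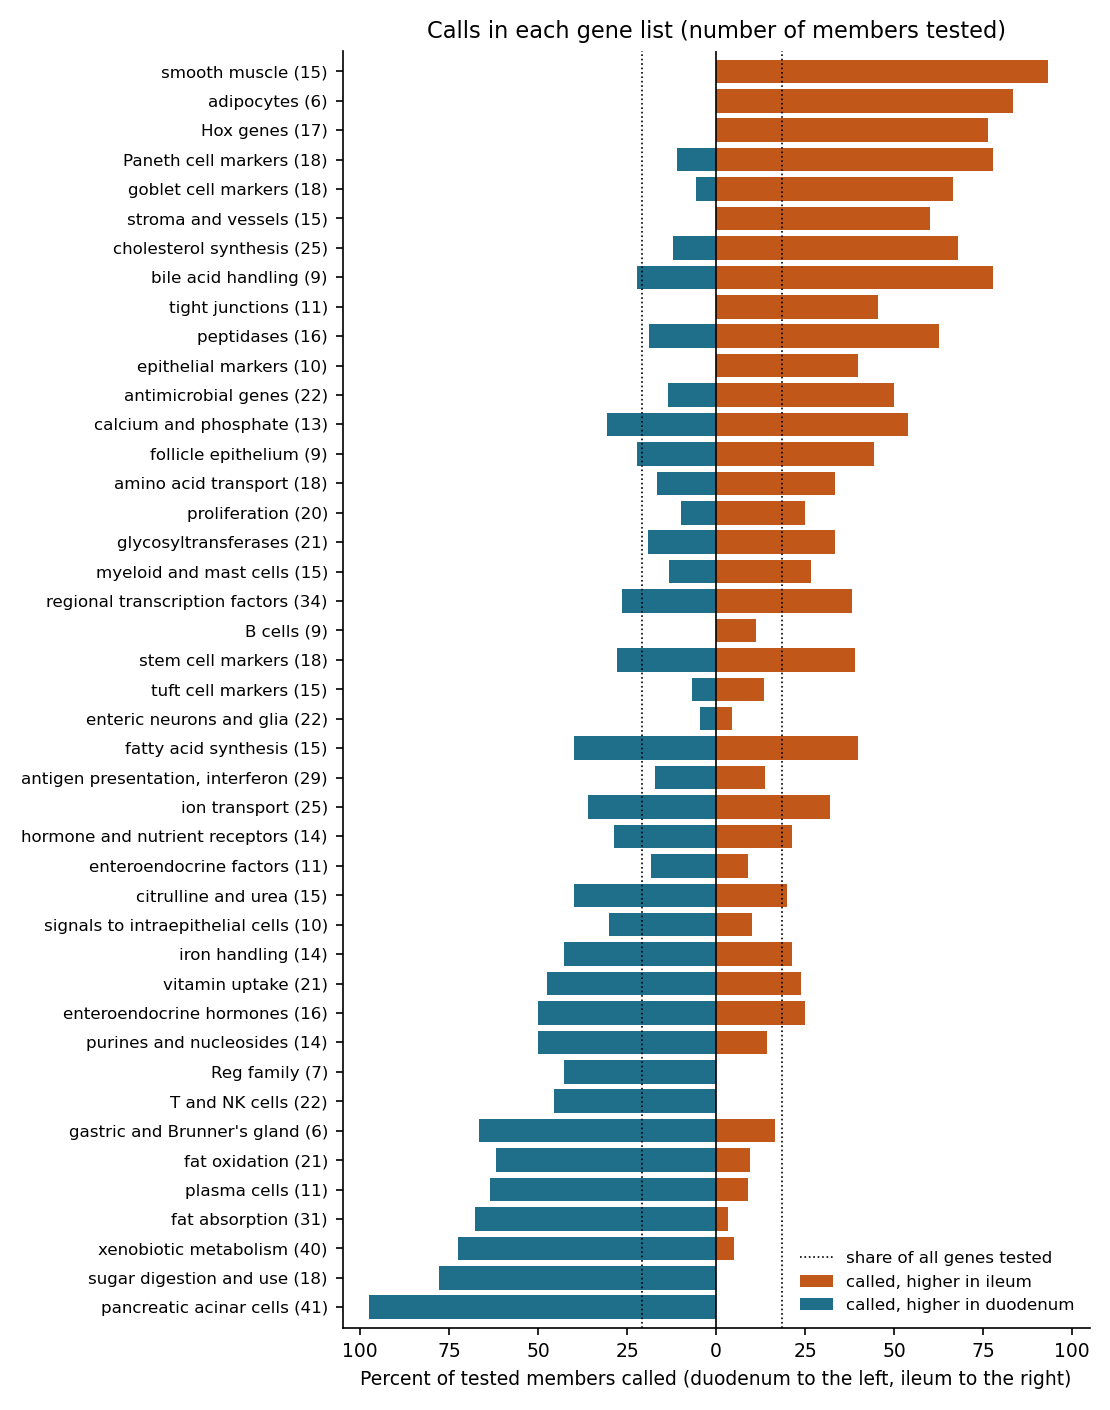
Bars give the percent of each list's tested members (number in parentheses) called higher in ileum (orange, right) or duodenum (blue, left), for lists with at least 5 tested members. Dotted lines mark the shares over all 14976 genes, 18.5% and 20.9%. Smooth muscle, Hox, Paneth cell and cholesterol synthesis genes reach far to the ileal side, and sugar, xenobiotic and fat absorption genes to the duodenal side.

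Ion transport genes were called both ways, 8 in ileum and 9 in duodenum of 25. Guca2a (guanylin), a peptide that sets salt and water secretion, measured 432, 289, 316 and 371 CPM in ileum and 47.7, 31.5, 40.6 and 48.9 in duodenum (3.06 ± 0.11, adjusted p = 6.07e-07). Its receptor Gucy2c was not called (-0.19 ± 0.11). The sodium-proton exchanger Slc9a3 and the anion exchanger Slc26a6 were duodenal, by -1.94 ± 0.11 and -1.48 ± 0.14. Tight junction genes were called ileal in 5 of 11 cases and duodenal in 0 (45.5% called, against 39.4% of all genes). Cldn8 led them (2.93 ± 0.28, 11.8 ± 3.86 CPM in ileum). The ileal count was 3 without NF17. The duodenal count was 1 under several other settings, such as no animal block, and 2 without NF29.

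Glycosyltransferases, which build the sugar coats of mucins and membranes, had 7 ileal and 4 duodenal calls among 21. Mgat4c, an N-acetylglucosaminyltransferase, measured 596, 702, 619 and 813 CPM in ileum and 2.58, 2.002, 5.03 and 1.77 in duodenum (7.98 ± 0.35, adjusted p = 1.60e-05). Gcnt1, which branches O-glycans, and Galnt5, which starts them, were ileal, by 3.14 ± 0.13 and 1.49 ± 0.11. Fut4, a fucosyltransferase, was duodenal (-1.19 ± 0.09).

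Markers of Paneth cells, the antimicrobial cells at the crypt base, were higher in ileum in 14 of 18 genes and in duodenum in 2, with a median of 1.60. Ang4, an antimicrobial ribonuclease, measured 721, 542, 625 and 671 CPM in ileum and 173, 83.8, 162 and 162 in duodenum (2.19 ± 0.14, adjusted p = 1.39e-05). Defa22, an alpha-defensin, was 802 ± 121 CPM in ileum and 6.46 ± 2.84 in duodenum (7.03 ± 0.32, adjusted p = 1.77e-05), while Defa26 differed by 1.33 ± 0.12. Alpha-defensins are near-identical copies, so values of single members are uncertain. Mptx2, a Paneth cell pentraxin, was not called: its duodenal libraries measured 207, 73.6, 197 and 17.8 CPM, against 514, 889, 596 and 635 in ileum (2.85 ± 0.83, adjusted p = 0.0569). It passed the threshold, as higher in ileum, under 8 of 11 other settings. Of the duodenal members, Pnliprp2 is the lipase given above.

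Goblet cell markers were ileal in 12 of 18 genes and duodenal in 1, with a median of 0.65. Agr2, a disulfide isomerase of mucin folding, measured 557, 672, 404 and 615 CPM in ileum and 183, 184, 189 and 229 in duodenum (1.50 ± 0.14, adjusted p = 7.92e-05). Sytl2 and Bcas1 were higher by 1.20 ± 0.09 and 1.099 ± 0.11. Zg16, a lectin of the mucus layer, was not called (-0.35 ± 0.17). The duodenal gene was Klk1, a kallikrein (-2.14 ± 0.20). Ileal Klk1 measured 116, 68.1, 93.9 and 84.4 CPM, highest in NF17 and NF32, the libraries with most acinar RNA. The part of acinar RNA in it was not tested.

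Reg3b and Reg3g, lectins that the epithelium releases against bacteria, had higher means in ileum but were not called (2.88 ± 1.04, adjusted p = 0.0848 and 2.80 ± 0.9999, adjusted p = 0.0845). Each passed the threshold under 4 of 11 other settings, leaving out NF32 among them. Reg3g measured 4545, 10732, 4218 and 4854 CPM in ileum and 1987, 220.3, 2084 and 366 in duodenum. The duodenal libraries of NF17 and NF32 lay several-fold above those of NF29 and NF152, the SE was wide, and ileal and duodenal values did not overlap. Reg1, Reg3d and Reg2 were called higher in duodenum (-4.70, -4.55 and -4.34). They are also pancreatic genes and stand on the acinar list. The call for Reg2 was lost without the animal block.

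Other antimicrobial genes had 11 ileal and 3 duodenal calls among 22, and 6 members passed the count filter only through ileum. The duodenal count was 1 without NF17 and 6 without NF29. Pla2g2f, a secreted phospholipase, was ileal (1.81 ± 0.15). Il18, a cytokine stored in epithelium, was duodenal, at 122, 162, 112 and 131 CPM against 39.8, 44.7, 33.1 and 44.4 (-1.70 ± 0.09, adjusted p = 5.38e-06).

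The list of gastric and Brunner's gland genes had 4 duodenal and 1 ileal calls among 6 tested of 19. Of the 6, Gkn3 and Pgc passed the count filter only through duodenum and A4gnt only through ileum, which favours a difference. Brunner's glands are mucous glands found below the duodenal epithelium only. Tff2, a trefoil peptide of these glands, measured 367, 190.2, 202 and 152.3 CPM in duodenum and 15.5, 4.12, 15.6 and 2.48 in ileum (-4.84 ± 0.42, adjusted p = 0.000669), and the ileal values of Tff2 were highest in NF17 and NF32. Egf, a growth factor, was duodenal (-1.73 ± 0.15) and A4gnt, which caps gland mucins, ileal (2.49 ± 0.25). Ileal Egf measured 5.36, 3.29, 4.85 and 2.92 CPM, likewise highest in NF17 and NF32, the libraries with most acinar RNA.

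Tuft cell markers had 2 ileal and 1 duodenal calls among 15, a smaller share than the 39.4% of all genes. Sucnr1, the succinate receptor of these cells, was ileal (2.97 ± 0.42, 1.53 ± 0.326 CPM there). Stem cell markers were called both ways, 7 in ileum and 5 in duodenum of 18; the duodenal count was 2 without NF17. Lgr5 measured 15.3, 17.01, 18.6 and 18.4 CPM in ileum and 4.75, 6.198, 8.53 and 8.01 in duodenum (1.36 ± 0.14, adjusted p = 0.000142), and the Wnt target Axin2 was also ileal (0.86 ± 0.13). Rnf43, which removes Wnt receptors, and Hopx were duodenal (-0.97 ± 0.10 and -0.86 ± 0.09). Of 20 proliferation genes, 5 were called ileal and 2 duodenal, 35% against 39.4% of all genes. Among them were Rrm2, a subunit of ribonucleotide reductase (-0.95 ± 0.12), and Ccnb1, a mitotic cyclin (0.89 ± 0.20). Without NF17, 1 proliferation gene was called ileal.

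T and NK cell genes were called only in the duodenal direction, 10 of 22, with a median of -0.48. That is 45.5% called, against 39.4% of all genes, and over all 16 libraries 6 were called. Ccl5, a chemokine of cytotoxic cells, measured 27.3, 37.7, 36.1 and 15.8 CPM in duodenum and 10.7, 13.3, 9.69 and 6.92 in ileum (-1.48 ± 0.14, adjusted p = 7.73e-05). Cd7, a marker of intraepithelial lymphocytes, and Itgae, the integrin that holds them to the epithelium, were duodenal, by -1.05 ± 0.14 and -0.72 ± 0.10. Cd4 was not called (-0.32 ± 0.15). Of the signals to intraepithelial cells, the butyrophilin-like genes Btnl2 and Btnl1 were duodenal (-1.08 ± 0.11 and -0.60 ± 0.14), and Il7 ileal (1.03 ± 0.19).

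Plasma cell genes were duodenal in 7 of 11 cases and ileal in 1, with 4 duodenal calls without NF17. Igha, the constant region of IgA, measured 7250.3, 13329.5, 6879.6 and 9766 CPM in duodenum and 3379, 5222, 2167 and 6333 in ileum (-1.19 ± 0.22, adjusted p = 0.00276), and Derl3, of the secretory machinery, differed by -1.49 ± 0.16. Of 18 B cell genes, 9 were tested and 1 was called, as ileal. Without the count filter 14 of 18 were called ileal and 1 duodenal, and without NF152 1 was ileal and 2 duodenal of 9. A single ileal library stood apart: Ms4a1 (CD20) measured 0.844, 1.37, 0.932 and 42.4 CPM in ileum and 0.4999, 0.191, 1.04 and 1.05 in duodenum (3.35 ± 1.16, adjusted p = 0.0759). NF152 was the high library of Ms4a1, and likewise of Spib in ileum (5.87, 5.67, 7.83 and 19.8 CPM). Summed over the list, B cell genes came to 29.4, 36.0, 31.7 and 169 CPM in the ileal libraries and 33.8, 44.1, 32.9 and 43.4 in the duodenal ones.

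Genes of antigen presentation and interferon had 4 ileal and 5 duodenal calls among 29, 31% against 39.4% of all genes. The duodenal count was 3 without NF17 and 8 without NF29. The peptide transporter Tap2 was duodenal (-0.86 ± 0.10) and Ido1, which degrades tryptophan, ileal (1.06 ± 0.12). Cd74 and B2m, the most abundant members that were not called, differed by -0.28 ± 0.14 and -0.34 ± 0.15. Of 15 myeloid and mast cell genes, Cd163, a macrophage receptor, was ileal (1.47 ± 0.16) and Prg2, an eosinophil granule protein, duodenal at 9.66, 6.77, 9.86 and 11.8 CPM against 2.201, 0.549, 1.77 and 2.39 (-2.46 ± 0.23, adjusted p = 8.07e-05).

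Most tested genes on the smooth muscle list and on the stroma and vessel list were called higher in ileum. Smooth muscle genes were called higher in ileum in 14 of 15 cases, with a median of 1.08, and in duodenum in 0. Without NF17 the ileal count was 7, and without NF29 it was 5. Tagln (transgelin) measured 319, 264, 262 and 268 CPM in ileum and 99.6, 96.3, 62.0 and 157 in duodenum (1.49 ± 0.20, adjusted p = 0.000939). Stroma and vessel genes were ileal in 9 of 15. Collagens, gathered by gene name, were mixed, with 6 ileal and 4 duodenal calls and 22 genes not called among 32. Laminins, gathered likewise, had 4 ileal and 0 duodenal calls among 11. Grem1, a BMP antagonist of the cells around the crypt, differed by 2.05 ± 0.11 and Lum (lumican) by 2.01 ± 0.14. Of 22 genes of neurons and glia (9.09% called, against 39.4% of all genes), 1 was called ileal (Kit, which marks pacemaker cells, 1.098 ± 0.11) and 1 duodenal (Npy, -1.45 ± 0.27), with a median of 0.28. Their summed level was 943, 627, 742 and 738 CPM in ileum and 734, 511, 628 and 549 in duodenum, higher in ileum in each animal.

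Adipocyte genes were also found, with 5 of 6 called ileal, but 4 of them (Adipoq, Plin1, Cfd and Adrb3) passed the count filter only through ileal libraries, which favours a difference. Adipoq (adiponectin) measured 3.71, 8.32, 16.8 and 17.3 CPM in ileum and 0, 0.0954, 0.379 and 0.82903 in duodenum (5.05 ± 0.34), so that it was low in NF17 and high in NF32 and NF152. Taken singly, each of the 6 tested members had libraries that did not overlap between tissues. The summed list, however, overlapped, at 50.1, 63.0, 126 and 103 CPM in ileum and 60.1, 149, 64.2 and 84.7 in duodenum. That sum includes Cidec, the member not called, which had the opposite sign (-1.26). General epithelial markers were called higher in ileum in 4 of 10 and in duodenum in 0, 40% against 39.4% of all genes. The ileal count was 1 without NF17 and 2 without NF152. Krt18 was higher by 0.59 ± 0.10, and the abundant Vil1 and Lgals4 were not called (0.14 ± 0.16 and 0.35 ± 0.14). How far the share of muscle, stroma or fat in each piece of tissue enters the other differences was not tested.

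**Figure D5:**
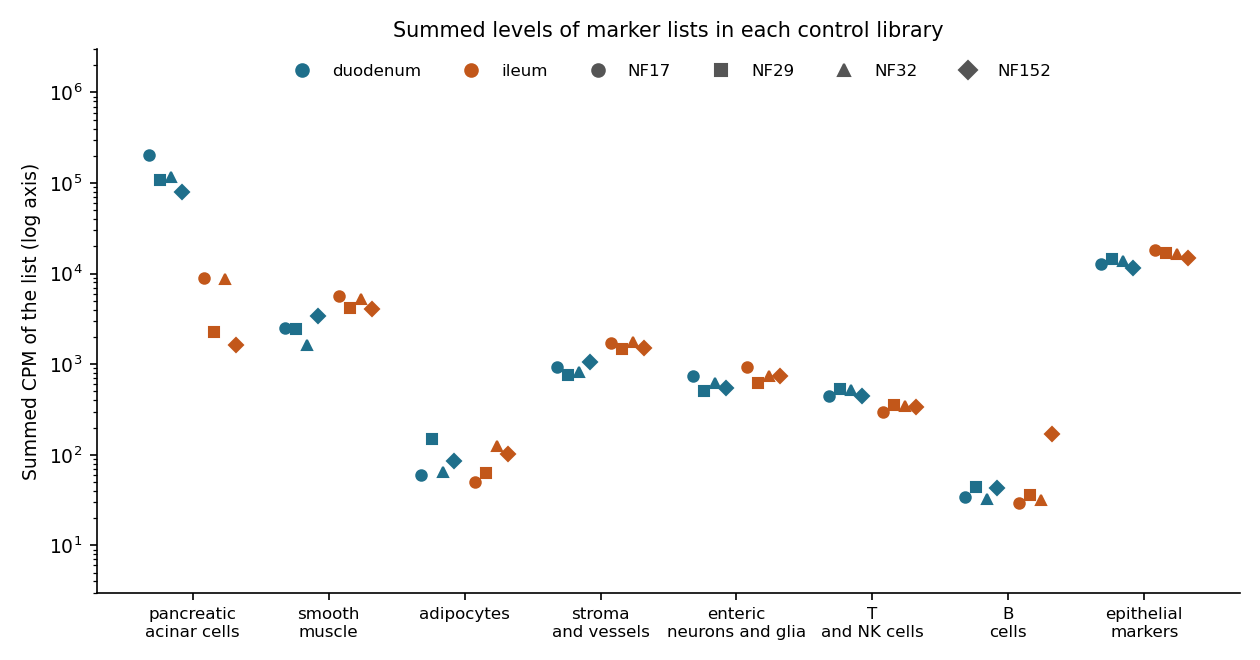
Summed CPM of 8 marker lists in each control library on a log axis, duodenum in blue and ileum in orange, with a symbol for each animal. Acinar genes are higher in every duodenal library than in any ileal one, smooth muscle and stroma genes higher in every ileal one, and ileal B cell genes are high in NF152 alone.

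The mutant animals gave the same tissue comparison in 4 other mice, whose epithelium had lost Neurog3. Of 14629 genes tested in both genotypes, 5787 were called in controls and 4767 in mutants, and 3827 were called in both with the same sign. That is 66.1% of the control calls and 80.3% of the mutant calls. Only 10 genes were called with opposite signs.

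The test of the difference itself, mutant minus control, called 16 of 15882 genes (0.101%), while 844 had an unadjusted p under 0.05. Gcg changed most clearly: in mutants its ileal libraries measured 0, 0, 0 and 0.0536 CPM and its duodenal ones 0.0840, 2.22, 0 and 2.54 in the order NFVCT27, NFVCT38, NFVCT153 and NFVCT190, so that the ileal excess of controls was not seen (difference -8.51 ± 0.52, adjusted p = 2.97e-05). The size of that fitted difference depends on the prior count, since mutant ileal libraries were at or near 0. Trpa1, duodenal in controls, was not so in mutants (difference 3.59 ± 0.38, adjusted p = 0.00203), where duodenal libraries measured 1.60, 0.700, 0.724 and 0.441 CPM. Pla2g4c, a phospholipase, was ileal in controls at 16.5, 45.2, 18.4 and 22.6 CPM against 0.667, 6.01, 2.09 and 2.76, and reached 3393, 2354, 2357 and 606 in mutant ileum (difference 6.58 ± 0.55, adjusted p = 0.00163). The tissue difference was also changed for Cd55, which shields cells from complement (1.59 ± 0.19), for the esterase Ces1f (-1.21 ± 0.16) and for Dao, which oxidises D-amino acids (2.01 ± 0.27). Without the animal block the calls for Gcg, Cd55 and Ces1f were lost. The calls for Ces1f and Dao were also lost when NF17, NF32 or NFVCT38 was left out, and that for Ces1f without NFVCT27.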

How the data were processed

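RNA of whole duodenum and ileum was sequenced from 4 control and 4 mutant mice, 1 library per tissue and animal. Libraries were made from ribosome-depleted total RNA with a stranded kit and PCR, and no molecular identifiers are mentioned, per the labels' protocols. Tools listed in the submitters' processing notes are STAR 2.5.3a and Bowtie2 2.2.8 (aligners), HTSeq 0.6.1p1 (counting), cutadapt 1.10 and bcl2fastq 2.20.0.422, with mm39 as the genome build. Which annotation HTSeq used, and whether it counted by strand, is not given in the sources used here, so overlapping and antisense genes cannot be told apart. The authors deposited raw counts per gene, for 55359 identifiers, of which 52083 had a symbol, holding 98.3% of the counts.

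Computed from these counts: TMM-scaled CPM, and edgeR 4.0.16 (R 4.3.3) quasi-likelihood F tests with robust fitting after its default count filter (about 0.750 CPM in 4 libraries), with the animal as a block and Benjamini-Hochberg adjustment. Main tests used the 8 control libraries, and the difference between genotypes all 16. The animals pair the libraries, since 1 animal gave both tissues. Deviations from the tissue means correlated at 0.127 to 0.312 within control animals and at most 0.0732 with another animal. No pair of libraries within a tissue differed by as little as sampling noise. Each group holds 4 animals. Folds against a tissue with at most 3 counts over its 4 libraries are given as bounds.

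On simulated data with the control comparison's means, the test recovered 60%, 96%, 96% and 94% of 1.5-, 2-, 4- and 8-fold changes (50 genes each) among 15047 genes, with 13 false calls. For the difference between genotypes, it recovered 26%, 58%, 98% and 96% among 15670 genes, with 3 false calls.

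Members and gene lists were chosen with earlier results of these data known, so a list's count is a description. Genes were named by rule: the 10 largest called changes each way among genes with non-overlapping libraries and at least 10 CPM, leaving out pancreatic, predicted, pseudogene and receptor-segment genes; tested bile acid, Hox, regional factor, hormone and alkaline phosphatase genes, of which not all are described; up to 4 members of smallest p and the 2 most abundant uncalled members of each other list; and up to 6 genes of the genotype difference. Others are said to have been picked later. Some regional factors are not reported here. Exon lengths came from GENCODE vM21 and promoters from RefSeq (GRCm38.p6), matched by symbol. Alternatives were DESeq2 1.42.0 (size factors, and its Wald test), voom in limma 3.58.1, no block, no count filter, acinar genes removed, all 16 libraries, and each animal left out.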

Additional observations from a re-analysis of the deposited data

Results flagged for a closer look

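For each named gene and tissue, the highest and lowest of the 4 control libraries were checked against the others by the size of their gap relative to the whole range. A library stood apart in 33 of 414 such groups, while chance gives about 1 in 20 (Dixon's test at 95%). The duodenal library of NF29 accounted for 10 of them.

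In that library, Apob, the core protein of chylomicrons, measured 11097 CPM against 6906 to 7198 in the other duodenal libraries, and Slc6a19 972 against 506 to 559.6. Heph was 688 (539.5 to 557 in the others), Msmo1 80.4 (52.8 to 56.3), Rnf43 56.7 (47.5 to 48.9), Ido1 28.3 (16.5 to 17.4) and Gsdme 8.77 (5.12 to 5.42). The low genes there were Ang4, a Paneth cell ribonuclease, at 83.8 (162 to 173), the Wnt target Axin2 at 28.1 (35.9 to 36.6) and Kit at 14.3 (17.4 to 17.8). In the ileum of the same animal, Reg3g stood at 10732 CPM against 4218 to 4854 and the desaturase Scd2 at 527 against 170.3 to 219. Cubn was low at 410.4 (954 to 1007), as were Ces1e at 6.68 (11.1 to 12.0) and Hoxc9 at 1.01 (1.26 to 1.305).

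The ileal library of NF152 was high in the B cell gene Ms4a1, at 42.4 CPM against 0.844 to 1.37. It was also high in Spib, a factor of B cells, at 19.8 (5.67 to 7.83), and in Fgf15 at 7.61 (1.03 to 1.50) and Nkx2-2 at 0.609 (0.274 to 0.330). The duodenal library of NF152 was high in Agr2 at 229 (183 to 189), Sytl2 at 34.98 (30.8 to 31.5), the adipocyte gene Cfd at 1.16 (0 to 0.190) and P2ry4 at 0.0553 (0 in the others), and low in Slc7a8 at 80.9 (137 to 144) and Tap2 at 66.7 (99.6 to 106).

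For NF17, ileal values apart from the rest were 435 CPM of Gucy2c (393 to 400.3), 319 of Tagln (262 to 268), 69.2 of Cideb (54.5 to 56.6) and 12.8 of Otop3 (3.75 to 4.66). Its duodenal ones were 39.4 of Dao (35.4 to 35.9) and 0.167 of Hoxc6 (0 in the others). For NF32, duodenal Slc5a8 was 1.80 CPM (0.0553 to 0.167) and Hoxb9 0.0948 (0 in the others).

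The tissue difference itself was not the same in mutants and controls for 6 named genes by the edgeR test of the mutant minus control difference. It was -8.51 for Gcg, 6.58 for Pla2g4c, 3.59 for Trpa1, 1.59 for Cd55, -1.21 for Ces1f and 2.01 for Dao on the log2 scale.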

How the results depend on the processing

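The control comparison called 5897 genes, and 5372 without the replicate block. Leaving out 1 animal gave 3669 (NF17) to 5941 (NF29), and at least 2-fold 1647 to 1890 against 1824. The share of calls that were ileal stayed at 43.6% to 48.7%. The 16 genes of the genotype difference became 72 with DESeq2's Wald test, 7 without the replicate block, and 6 to 22 with 1 animal left out (NF17 7, NF32 6, NFVCT27 7, NFVCT38 6). Of the 210 named genes, 179 were called, and 170 of them under every setting tried. Many were named for a small p or a large change in these same data, which favours such stability. Without the replicate block, Alppl2, Cd55, Hnf4a, Hoxb4 and Reg2 lost their calls between control tissues, and no other named gene did. Over all genes, 5215 of the 5897 calls were kept with the same sign in that setting. With 1 animal left out, 3616 (without NF17) to 5184 (without NF29) were kept with the same sign. A sign turned for 2 uncalled genes: Gata5 ran from -0.012 (without NF152) to 0.099 (without NF29) with 1 animal left out, and Hoxb2 from -0.53 (without NF32) to 0.034 (without NF29).

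Depth limits genes of low counts: several Hox genes, Nkx2-2, Neurog3 and Fgf15 rest on few reads, and changes of 1.5-fold were recovered in 60% of simulated cases. The animals number 4, and no second cohort of controls was used. Levels of acinar and muscle genes differed between the tissues' pieces and cannot be told apart from the segment itself. Near-identical genes, such as defensins, may share reads.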

Other observations

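Some gene families are given here beyond the lists above, although single members, such as Gstm3, also stand on a list. They were picked by name after the values had been seen, and no test of a family was made. Of 87 nuclear genes for the respiratory chain and the ATP synthase, 66 were called higher in duodenum and 1 in ileum, with a median log2 difference of -0.61 against 0.01 over all genes. Glutathione transferases were called duodenal in 19 of 21 cases (median -1.69) and UDP-glucuronosyltransferases in 9 of 12 (median -1.68). Both metallothioneins tested, which bind zinc and copper, were duodenal, by -2.36 ± 0.12 for Mt1 and -2.67 ± 0.16 for Mt2. Genes with names that start with Rpl or Rps had 22 duodenal and 9 ileal calls among 89. Most of them encode ribosomal proteins, but the name also takes in some genes of other kinds, such as kinases. Over all genes tested, 20.9% were called duodenal and 18.5% ileal.

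Gasdermins, pore-forming proteins of the epithelium, were called ileal in 4 of 5 cases. Gsdmc4 measured 58.7, 69.2, 76.2 and 59.1 CPM in ileum and 1.42, 3.15, 1.80 and 1.27 in duodenum (5.16 ± 0.18, adjusted p = 7.32e-07), and Gsdme 134, 127, 116 and 159 and 5.25, 8.77, 5.12 and 5.42 (4.48 ± 0.17, adjusted p = 1.08e-06). Gsdmd was the duodenal one (-0.40 ± 0.09), a call lost without NF17 and over all 16 libraries. The Gsdmc genes are close copies of each other, so that reads may be shared among them. Genes of sulfur metabolism went both ways: Papss2, which makes the activated sulfate used by all sulfotransferases, measured 6642, 8167, 6768 and 5431 CPM in duodenum and 677, 378, 539.8 and 378 in ileum (-3.80 ± 0.23, adjusted p = 8.75e-06), while Suox, the sulfite oxidase, was 509 ± 76.4 CPM in ileum and 13.4 ± 1.70 in duodenum (5.24 ± 0.14, adjusted p = 9.76e-08). Enpp7, the alkaline sphingomyelinase, was ileal (4.07 ± 0.59), as was the sialidase Neu1 (2.66 ± 0.15). All these genes were named after their values had been seen.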
